A study of Mus musculus with 20 samples.

Results

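The interplay of the Wnt and Bmp signals was described in a pooled single-cell experiment on mouse embryonic stem cells that had first been directed towards mesendoderm, the transient population that gives rise to mesoderm and endoderm. The cells were a male 129P2/OlaHsd line. Every well was pretreated for 24 h with the retinoic acid receptor antagonist CD 2665, Activin A, GSK3 inhibitor XV (which activates Wnt signalling), the BMP receptor inhibitor Dorsomorphin and Fgf2. The wells then received for 24 h one of 128 combinations of 7 signals (RA, Tgfb, Notch, Shh, Wnt, Bmp and Fgf), each set to plus or minus, in 384 wells with 2 to 4 wells per combination. The compounds behind plus and minus are not named in the tables of this experiment. In the germ layer experiment of the same series the Wnt pair is a GSK3 inhibitor or IWR1 and the Bmp pair is Bmp4 or Dorsomorphin. No well was left without a setting for each signal, so minus means the minus setting and not an untreated state.

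Each well was tagged with barcodelets, short synthetic RNAs transfected into the cells so that a cell carries the label of its treatment into 1 pooled library. Of 12781 cells, 2899 (22.7%) carried a barcodelet assignment that the authors marked as passing. Those in wells with at least 5 such cells were kept: 2633 cells in 300 wells, out of 27146 cells in the 3 single-cell experiments of the series. The UMI counts (molecules per gene) of the cells in a well were summed, and the wells fell into 4 groups. There were 75 wells of Wnt minus with Bmp minus, 77 of Wnt minus with Bmp plus, 68 of Wnt plus with Bmp minus and 80 of Wnt plus with Bmp plus. The measure of interplay, called the product, is the log2 effect of Bmp in Wnt plus wells less that in Wnt minus wells, with the other signals and pairs held in the model. A positive product means that Bmp raised a gene more, or lowered it less, where Wnt was plus. The same number is the effect of Wnt in Bmp plus wells less that in Bmp minus wells.

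As background, canonical Wnt signalling stabilises beta-catenin, which acts with Tcf and Lef factors on target genes, many of which are inhibitors of the pathway. BMP ligands act through receptors that phosphorylate Smad1 and Smad5, whose targets include the Id genes and the inhibitory Smads. In the gastrulating embryo both pathways act at the posterior side: Wnt is needed for the primitive streak, where T and Mixl1 are expressed, and BMP is known for its part in extraembryonic and lateral mesoderm and in surface ectoderm.

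The summed wells held 27701 to 332644 UMIs (median 101097) from a median of 8 cells, so a gene at 10 CPM (the usual count scaled to the well's UMI total) rested on about a single molecule in a typical well and a level of 0 in a well is not absence. Cells and RNA were compared for the same product. Over all wells the mean number of passing cells was 7.35 ± 4.02, 7.71 ± 3.87, 6.86 ± 3.70 and 8.27 ± 3.65 (SD, 96 wells each, in the order of the groups above), and the product of this number, 1.05 cells, had an adjusted p of 0.274 by a 2-sided permutation test. UMIs per cell (product 517, adjusted p = 0.275) and the mitochondrial share of UMIs (product -0.166 percentage points, adjusted p = 0.274) also missed the threshold in that permutation test of 3 measures. The groups themselves ranged from 4.51 ± 0.33% (SD, 80 wells, both signals) to 4.91 ± 0.47% (75 wells, neither signal) in mitochondrial share, and the part of this in the results was not tested. T was detected in 287 of 300 wells and Mixl1 in 269, whereas Eomes was detected in 111, Gsc in 92 and Mesp1 in 54. The pluripotency factor Pou5f1 was detected in 296 wells. A sum over the cells of a well cannot tell more cells of a type from more RNA per cell. The tag that fixes the settings of Wnt, Bmp and Fgf is the same in every well with that setting, and the tag and the setting cannot be told apart within a group. A label of these samples describes 5 pathways with controls and 144 conditions from a pair of starting states, which is the layout of the mixed experiment. The deposited design tables, used here, give 7 signals and 384 wells.

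Bmp acted differently in Wnt plus and Wnt minus wells on 288 of 7437 genes tested (3.87%; edgeR quasi-likelihood test, Benjamini-Hochberg adjusted p under 0.05), 167 with a positive product (2.25%) and 121 with a negative one (1.63%). The positive share of the calls was 58.0%, and it ranged from 43.5% (scaling by highly counted genes) to 71.1% (a lower count minimum) in other fits on wells of both Fgf settings, apart from one on large wells described below. The sign of the product was the same for each of the 288 genes in those fits that tested it. Within the Wnt plus wells Bmp changed 587 genes (7.89%), raising 304 (4.09%) and lowering 283 (3.81%). Within the Wnt minus wells it changed 671 (9.02%), raising 358 (4.81%) and lowering 313 (4.21%). Wnt changed 1514 genes where Bmp was plus (20.4%), raising 748 (10.1%) and lowering 766 (10.3%). Where Bmp was minus it changed 583 (7.84%), raising 307 (4.13%) and lowering 276 (3.71%).

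The positive products came from 2 main patterns of about equal size. Bmp raised 72 of the 167 genes in Wnt plus wells with no call in Wnt minus wells, among them Ccnd2, Sp6 and Nkd1. It lowered 62 in Wnt minus wells with no call in Wnt plus wells, among them Fgf8, Lmo2 and T (whose effect in Wnt plus wells was close to the threshold). For 6 genes the effect crossed over, raised in Wnt plus wells and lowered in Wnt minus wells; these included Ccnd1, Cdkn1a and Tenm4. Sp5 alone was lowered in both. Of the 121 negative products, 59 were genes that Bmp raised in Wnt minus wells with no call in Wnt plus wells, such as Hand1, Pmp22, Amot and Krt18, and 40 were genes it lowered in Wnt plus wells with no call in Wnt minus wells. Another 4, Bambi and Id2 among them, were raised in both and by less where Wnt was plus. Read from the side of Wnt, 111 of the 167 were raised by Wnt with Bmp present and had no call without it, and 85 of the 121 were lowered by Wnt with Bmp present and had no call without it.

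**Figure D1:**
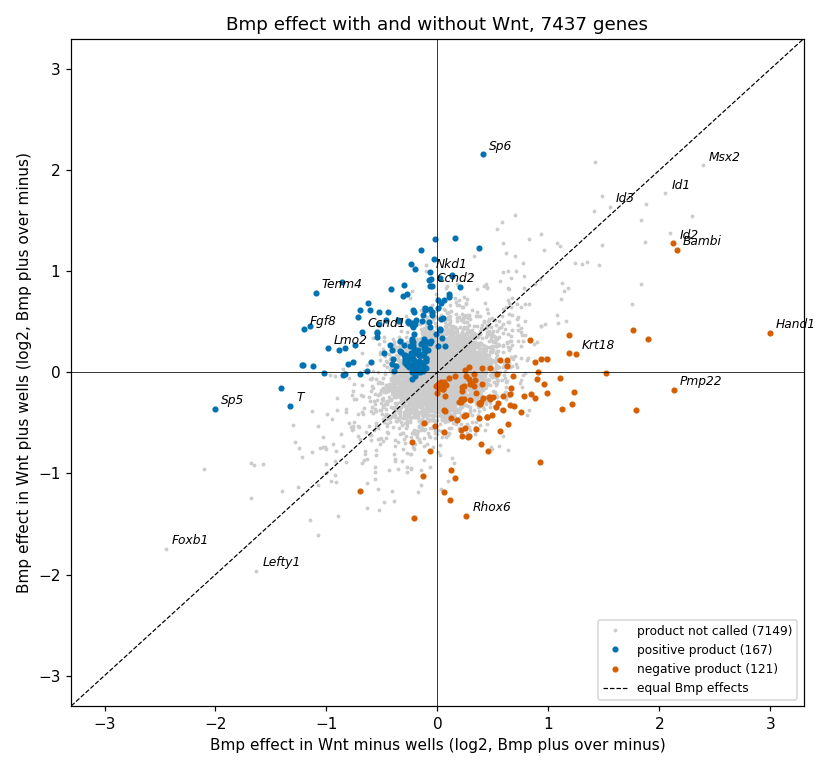
Each point is 1 of 7437 genes, with the log2 effect of Bmp in Wnt minus wells on the horizontal axis and in Wnt plus wells on the vertical axis; the dashed line marks equal effects. The 167 positive products (blue) lie above it and the 121 negative ones (orange) below it, with Sp5 far to the left near the zero of the vertical axis and Hand1 far to the right near it, while Id1, Id3 and Msx2 lie close to the line.

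Sp5 and T are shown with the 250 bases before their annotated starts because their products turned over between experiments, as given further below. Sp5 encodes a zinc finger factor that is a direct target of Wnt signalling, and T (Brachyury) is the T-box factor of the primitive streak. The sequences are from RefSeq on GRCm38.p6, on the plus strand, at chr2:70474673-70474922 for Sp5 and chr17:8434173-8434422 for T. Capitals mark the single match to CTTTGAT, a form of the site bound by Tcf and Lef factors, searched on both strands. Other forms of this site were not searched, so a window without capitals is not shown to lack one.
Sp5: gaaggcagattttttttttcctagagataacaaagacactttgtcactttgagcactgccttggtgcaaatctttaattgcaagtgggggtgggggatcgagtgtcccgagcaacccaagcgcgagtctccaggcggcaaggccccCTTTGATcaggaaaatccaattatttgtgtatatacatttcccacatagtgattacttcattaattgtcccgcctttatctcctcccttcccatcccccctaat
T: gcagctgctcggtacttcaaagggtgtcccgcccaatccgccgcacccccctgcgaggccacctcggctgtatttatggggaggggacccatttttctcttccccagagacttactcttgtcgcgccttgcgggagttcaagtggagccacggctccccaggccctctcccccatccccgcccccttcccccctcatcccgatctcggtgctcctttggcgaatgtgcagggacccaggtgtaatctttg
These letters occurred in 4 of 187 windows of the genes with a positive product (2.14%), in 1 of 120 windows of those with a negative one (0.833%), in 2.16% of the windows of the genes tested and in 3.21% of all 32851 windows. The letters GGCGCC, a GC-rich form of the Smad site, occurred in 20.3% and 22.5% of the windows of the positive and negative genes, against 18.1% for the genes tested. Of the genes tested, 5742 of 7437 had a window, with 132 of the 167 and 85 of the 121.

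Most tested targets and feedback inhibitors of the Wnt pathway had a positive product. Of 10 tested members of a list of 14, 7 had a called positive product and none a called negative one, with a median of 0.81 against -0.01 over all genes tested. For this list and those below, the matching shares over all genes tested were 2.25% for positive and 1.63% for negative products. Those for the single effects of Bmp and Wnt are given above. The lists were chosen with earlier results of these data known. Bmp raised 8 of the 10 and lowered 2 in Wnt plus wells, and raised 1 and lowered 3 in Wnt minus wells. Wnt raised 8 where Bmp was plus and 6 where it was minus.

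Sp5 (chr2:70474923-70477729) ranged from 11.5 to 374 CPM with a median of 114 in Wnt minus, Bmp minus wells. With Bmp it fell to a median of 26.4 (0 to 203). In Wnt plus wells the median was 219 without Bmp (37.6 to 603) and 170 with it (27.0 to 341). The ranges overlapped in all 4 groups, and the median was lowest with Bmp alone. The fitted log2 effect of Bmp on Sp5 was -2.01 ± 0.14 (SE) in Wnt minus wells (edgeR adjusted p = 8.0e-35) and -0.36 ± 0.10 in Wnt plus wells (adjusted p = 0.0064; 0.086 with limma-voom). The product was 1.65 ± 0.16 (adjusted p = 7.2e-17).

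Nkd1 (chr8:88521354-88594884), which encodes an intracellular inhibitor that binds Dishevelled, followed another course. In Wnt minus wells its median was 44.0 CPM without Bmp (0 to 233) and 49.1 with it (0 to 211). In Wnt plus wells it was 192 without Bmp (21.3 to 536) and 416 with it (197 to 708). Every well with both signals was thus above the median of the wells with Wnt alone. Bmp raised Nkd1 by 0.99 ± 0.09 in Wnt plus wells, its fitted effect in Wnt minus wells was -0.07 ± 0.15, and the product was 1.06 ± 0.18 (edgeR adjusted p = 2.1e-06). An annotated transcript overlaps Nkd1 on the same strand, so its count is uncertain to that extent. The sources used here do not say whether the authors' counting used strand, and Sp6 and Ccnd2 have annotated genes on the opposite strand.

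Notum, a secreted enzyme that inactivates Wnt ligands, had medians of 14.1, 19.0, 69.8 and 150 CPM in the order Wnt minus Bmp minus, Wnt minus Bmp plus, Wnt plus Bmp minus and Wnt plus Bmp plus. Its product of 0.91 ± 0.26 had an adjusted p of 0.019 and was not called without the other pairs in the model (0.77, adjusted p = 0.058). The nuclear partners of beta-catenin moved the same way. Lef1 had medians of 47.9, 41.5, 62.3 and 102 CPM and a product of 0.72 ± 0.15 (edgeR adjusted p = 0.00041), and Tcf7 had 55, 47.8, 103 and 154 CPM and 0.70 ± 0.14 (adjusted p = 0.00017). Znrf3, a ubiquitin ligase that removes Wnt receptors, was named after its values were seen; its product was 0.90 (edgeR adjusted p = 0.0098). For all 4 the Bmp effect passed in Wnt plus wells and not in Wnt minus wells.

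Axin2, a scaffold of the beta-catenin destruction complex and the standard readout of Wnt signalling, had medians of 78.2, 88.7, 258 and 359 CPM. Wnt raised it by 1.89 ± 0.09 with Bmp and 1.5 ± 0.09 without, yet the product of 0.39 ± 0.13 missed the threshold (edgeR adjusted p = 0.064). It passed in 4 of the alternative fits, among them the one that tested all genes without a filter on low counts. Dkk1, an antagonist of the Wnt co-receptors, did not follow the group: Bmp raised it in both settings of Wnt (0.84 and 1.18) and the product was -0.34 (adjusted p = 0.58). Among 13 tested ligands, receptors, antagonists and Tcf factors outside this list, 1 product was positive (the receptor Fzd10, 0.52 ± 0.13, edgeR adjusted p = 0.0063) and 1 negative (the ligand Wnt4, below).

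**Figure D2:**
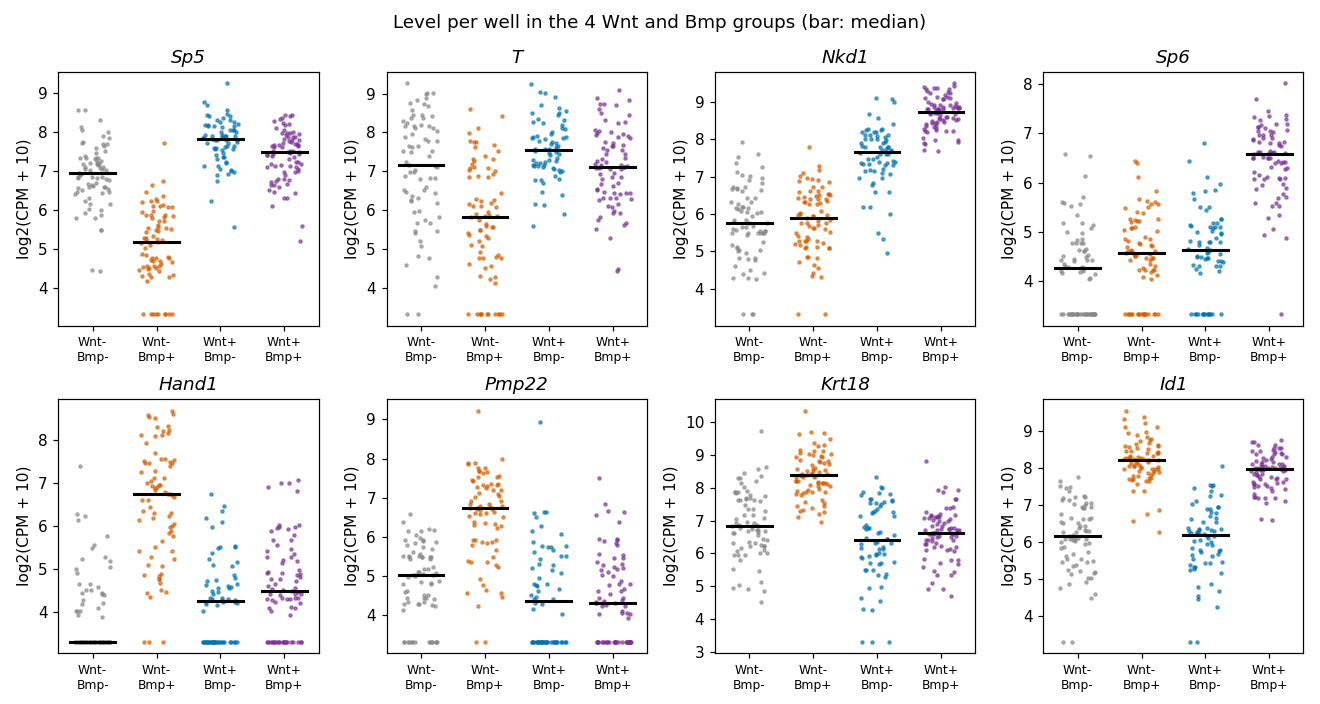
Level per well, as log2(CPM + 10), of 8 genes in the 4 groups; each point is a well and each bar a median. In Sp5 and T the Wnt minus, Bmp plus wells lie lowest, in Nkd1 and Sp6 the wells with both signals lie highest, in Hand1, Pmp22 and Krt18 the Wnt minus, Bmp plus wells lie highest, and in Id1 the medians of both groups of Bmp plus wells lie above those of the Bmp minus wells.

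Against 2.25% of all genes tested, 3 of 7 tested genes of the primitive streak and nascent mesoderm had a positive product. They were T, Mixl1 and Fgf8, and the list median was 0.77. T (chr17:8434423-8442496) had a median of 133 CPM (0 to 604) in wells with neither signal. Bmp alone gave 46.6 (0 to 382), Wnt alone 178 (38.1 to 595) and both together 129 (11.6 to 537). The fitted log2 effect of Bmp on T was -1.32 ± 0.15 where Wnt was minus (edgeR adjusted p = 3.7e-15). Where Wnt was plus the change of -0.33 ± 0.12 did not pass (adjusted p = 0.080), but it passed in 6 alternatives, among them the model without the other pairs (-0.48, edgeR adjusted p = 0.0039). The product of T was 0.99 ± 0.19 (edgeR adjusted p = 3.6e-05). It was 1.13 in the Fgf plus wells (adjusted p = 0.00096) and 0.72 in the Fgf minus wells, where it missed the threshold (adjusted p = 0.25) (the Fgf settings carry different tags).

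Mixl1 (chr1:180693043-180697034), a homeobox factor of the streak, had medians of 38.9, 18.4, 101 and 185 CPM in the same order. Its ranges overlapped, since each group held wells at 0, and the highest wells reached 423, 310, 711 and 481. Wnt raised Mixl1 by 2.16 ± 0.17 with Bmp and by 1.09 ± 0.16 without, a product of 1.07 ± 0.23 (edgeR adjusted p = 0.00052) that missed the threshold in Fgf plus wells alone (0.68, adjusted p = 0.20). Fgf8 (chr19:45736798-45742915), a secreted growth factor of the streak and caudal epiblast, had medians of 36.7, 13.4, 49.9 and 67.4 CPM, with 0 to 352, 0 to 225, 0 to 199 and 0 to 241 over wells. Wnt raised Fgf8 by 1.56 ± 0.20 with Bmp, and without Bmp its fitted effect was -0.07 ± 0.25. The product of Fgf8 was 1.63 ± 0.27 (adjusted p = 1.8e-06).

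The caudal epiblast list had 2 positive products among 10 tested members, Fgf8 and Greb1, against 2.25% of all genes, and a median of 0.43. Greb1 had medians of 28.2, 24.7, 41.9 and 68.5 CPM and a product of 0.98 ± 0.21 (edgeR adjusted p = 0.00077). Cdx2, a homeobox factor of the posterior body and of trophoblast, was raised by Bmp in Wnt plus wells (0.83 ± 0.13, adjusted p = 3.7e-08), to a median of 142 from 96.7 CPM. In Wnt minus wells its medians were 55.8 and 38.5 CPM with and without Bmp, and the product of 0.47 ± 0.18 did not pass (adjusted p = 0.15). The product of Cdx1 was 0.39 (adjusted p = 0.13). Both passed without a filter on low counts (edgeR adjusted p = 0.021 and 0.0023).

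Of all genes within the naming rule, the largest positive products belonged to Tenm4, Sp6, Trim54, Sp5, Fgf8, Ngfr, Dusp5, Slc16a10, Tirap and Nin. Sp6 (chr11:97013394-97024734), a zinc finger factor of the same family as Sp5, stood apart from it in pattern. Its medians were 9.21 CPM with neither signal (0 to 86.2), 13.8 with Bmp (0 to 76.3), 14.9 with Wnt (0 to 101) and 86.4 with both (0 to 249). The median was highest with both signals, where 79 of 80 wells held at least 1 UMI, and the ranges of the groups overlapped. Bmp raised Sp6 by 2.16 ± 0.16 in Wnt plus wells and had a fitted effect of 0.41 ± 0.22 in Wnt minus wells (adjusted p = 0.27), and the product was 1.75 ± 0.29 (edgeR adjusted p = 1.5e-06).

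Tenm4, which encodes a transmembrane teneurin, had the largest positive product, 1.88 ± 0.35 (edgeR adjusted p = 2.6e-05), at low levels with medians of 9.96, 0, 7.89 and 14.5 CPM. Several annotated genes overlap it. The neurotrophin receptor Ngfr had medians of 11.6, 4.34, 31.7 and 44.4 CPM and a product of 1.61 ± 0.27 (adjusted p = 3.2e-06). Lmo2, a LIM-only cofactor of blood and endothelial development, had medians of 32.6, 12.8, 86.5 and 138 CPM and a product of 1.23 ± 0.23 (edgeR adjusted p = 2.4e-05). It was the called member among 3 tested genes of the blood and endothelial list; the other members were Runx1 (product 0.69, adjusted p = 0.25) and Pecam1 (-0.55, adjusted p = 0.44). The homeobox gene Tlx2 had medians of 9.51, 16.0, 79.7 and 194 CPM. Wnt raised Tlx2 by 2.94 ± 0.16 with Bmp and 1.77 ± 0.21 without (product 1.17 ± 0.29, adjusted p = 0.0045).

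Ccnd1, or cyclin D1, a Wnt target that drives the G1 phase of the cell cycle, had a median of 154 CPM with neither signal (15.6 to 341), 98.5 with Bmp (13.8 to 220), 155 with Wnt (28.8 to 304) and 197 with both (73.6 to 402). The effect of Bmp on Ccnd1 was -0.68 ± 0.09 without Wnt and 0.40 ± 0.09 with Wnt, both called, a product of 1.09 ± 0.12 (edgeR adjusted p = 7.3e-14). Ccnd2, or cyclin D2, had medians of 259, 262, 227 and 425 CPM and a product of 0.92 ± 0.12 (adjusted p = 1.1e-09). Cdkn1a, the p21 inhibitor of cyclin-dependent kinases, had medians of 264, 211, 421 and 623 CPM and a product of 0.98 ± 0.11 (edgeR adjusted p = 8.9e-13). Against 3.87% over all genes, none of 13 S phase genes was called, with products from -0.26 (Cdc6) to 0.56 (Ccne2). Of 12 mitosis genes 1 was called, Mki67, at -0.55 (edgeR adjusted p = 0.035), a call lost in several alternatives, among them limma-voom (adjusted p = 0.057), wells of at least 3 cells (0.081), a count minimum of 1 (0.064) and wells of a combination summed (0.051). In the list of 10 p53 targets, 2 had positive products, Cdkn1a and Phlda3 (0.52, edgeR adjusted p = 5.0e-05), and the other 8 were not called.

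Direct readouts of BMP signalling answered Bmp in both settings of Wnt. All 6 tested members of the list of BMP feedback and Id genes rose with Bmp in Wnt plus wells and in Wnt minus wells, with median effects of 1.33 and 2.08. The list held 2 called negative products, Id2 and Bambi, against 1.63% of all genes, and no called positive one, with a median of -0.50. Id1 (chr2:152736251-152737410), an inhibitor of bHLH factors, had a median of 61.3 CPM with neither signal (0 to 204) and 63.2 with Wnt (0 to 253). With Bmp it was 287 (66.8 to 736) where Wnt was minus and 242 (87.4 to 418) where Wnt was plus. The Bmp effect was 2.05 ± 0.11 in Wnt minus and 1.77 ± 0.12 in Wnt plus wells, and the product of -0.28 ± 0.16 did not pass (edgeR adjusted p = 0.40). Products of 0.08 ± 0.13 for Id3 (adjusted p = 0.83), -0.22 ± 0.16 for the inhibitory Smad gene Smad7 (adjusted p = 0.54) and -0.72 ± 0.32 for Smad6 (adjusted p = 0.22) did not pass either; Smad6 passed with limma-voom.

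For Id2 and Bambi the response to Bmp was smaller where Wnt was plus. Id2 had a median of 55.5 CPM (0 to 256) with neither signal and 268 (0 to 718) with Bmp. With Wnt it was 44.8 (0 to 213), and 144 (18.1 to 320) with both. The groups overlapped in range, and Bmp raised Id2 by 2.13 ± 0.12 in Wnt minus and 1.28 ± 0.13 in Wnt plus wells (product -0.85 ± 0.18, edgeR adjusted p = 0.00052). Bambi, a decoy receptor that damps BMP and Tgfb signalling, had medians of 38.8, 217, 36.0 and 111 CPM and a product of -0.94 ± 0.18 (adjusted p = 7.2e-05). The product of Bambi was -0.93 in the Fgf minus wells alone, where it missed the threshold (edgeR adjusted p = 0.058). In wells of at least 10 cells it was -0.48 ± 0.32 and not called (adjusted p = 0.73). Id2 was not called in the Fgf plus wells alone (-0.71, edgeR adjusted p = 0.12) or in wells of at least 10 cells (-1.11, adjusted p = 0.13). The Msx and Dlx homeobox genes, also targets of BMP, showed no product among 3 tested members. Bmp raised Msx1 by 1.49 ± 0.13 and 1.74 ± 0.14, and Msx2 by 2.39 ± 0.14 and 2.05 ± 0.15, in Wnt minus and Wnt plus wells. Among 11 tested BMP ligands, receptors, Smads and antagonists 1 product was called, that of Fst, against 3.87% of all genes. Follistatin, its protein, binds activins and BMPs. Fst had medians of 95.1, 27.6, 70.2 and 58.9 CPM, a Bmp effect of -1.41 ± 0.19 in Wnt minus wells and a product of 1.25 ± 0.25 (edgeR adjusted p = 0.00014).

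Hand1, Pmp22 and most of the other genes with the largest negative products had their highest median in Wnt minus, Bmp plus wells. Hand1 (chr11:57828705-57832818), a bHLH factor of extraembryonic and lateral mesoderm and of trophoblast, led them. With neither signal its median was 0 CPM and its maximum 158, and 31 of 75 wells held a UMI. With Bmp alone the median was 96.4 and the maximum 398, and 74 of 77 wells held a UMI. With Wnt alone the median was 9.15 (41 of 68 wells), and with both 12.4 (59 of 80 wells), with maxima of 97.8 and 125. The median was highest with Bmp alone; each group reached down to 0, and single wells of each other group exceeded that median. Bmp raised Hand1 by 2.99 ± 0.23 in Wnt minus wells (edgeR adjusted p = 2.5e-29), its effect in Wnt plus wells was 0.39 ± 0.27 (adjusted p = 0.46), and the product was -2.60 ± 0.38 (adjusted p = 1.7e-08).

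Pmp22 (chr11:63128982-63159547), which encodes a 4-pass membrane protein of epithelia and myelin, had medians of 22.3 CPM with neither signal (0 to 85.8), 96.7 with Bmp (0 to 588), 10.5 with Wnt (0 to 483) and 9.76 with both (0 to 170). Its product was -2.30 ± 0.33 (edgeR adjusted p = 1.3e-08). The simple epithelial keratins, which pair in filaments, shared the pattern. Krt18 (chr15:102028180-102032027) had medians of 105 CPM (12.8 to 837), 323 (114 to 1288), 74.2 (0 to 313) and 88.8 (16.1 to 437), so the lowest Wnt minus, Bmp plus well was above the median of each other group. Its product was -1.07 ± 0.19 (edgeR adjusted p = 6.9e-06), and that of Krt8 was -0.86 ± 0.19 (adjusted p = 0.00098). In the Fgf plus wells alone both missed the threshold (Krt18 -0.70, adjusted p = 0.15; Krt8 -0.59, adjusted p = 0.25).

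The fitted products of Hand1, Pmp22 and Krt18 were smaller in a fit of only the wells with more cells. Whether the product depends on cell number was not tested. Not every negative product shrank in that fit. Those of Lrp2 (-2.56) and Id2 (-1.11) were larger in size than over all wells used, and neither was called (edgeR adjusted p = 0.128 for each). Among the 98 wells of at least 10 cells, the product of Hand1 was -0.88 ± 0.75 (adjusted p = 0.82), that of Pmp22 -0.69 ± 0.55 (adjusted p = 0.80) and that of Krt18 -0.52 ± 0.31 (edgeR adjusted p = 0.69). The Wnt minus, Bmp plus wells were still the highest there: Hand1 averaged 12.2 ± 19.3 CPM (SD, 22 wells) with neither signal, 95.8 ± 89.4 (28 wells) with Bmp, 10.6 ± 12.7 (17 wells) with Wnt and 27.6 ± 30.0 (31 wells) with both. In the same 98 wells the product of Sp5 was 1.62 ± 0.23 (edgeR adjusted p = 1.0e-06), that of Fgf8 2.20 ± 0.44 (adjusted p = 0.0039), that of T 1.32 ± 0.29 (adjusted p = 0.010) and that of Nkd1 1.12 ± 0.27 (adjusted p = 0.039). This fit called 19 genes, 17 positive and 2 negative, and 285 of the 288 genes had the same sign in it. The product of Ccnd2 was 0.54 there and not called (adjusted p = 0.19), nor were those of Mixl1 (1.00) and Sp6 (1.52).

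The lateral and extraembryonic mesoderm list held 2 called negative products among 8 tested members, Hand1 and Pmp22, against 1.63% of all genes, and a median of -0.53. This list, like the others, was chosen with earlier results of these data known, and Pmp22 is also a gene of epithelia and myelin. The count is therefore not independent evidence about mesoderm genes. Bmp raised 5 of the 8 in Wnt minus wells and 2 in Wnt plus wells, and the fitted product was negative for all 8. Tbx3, a T-box factor named after its values were seen, rose with Bmp by 1.88 in Wnt minus and 1.67 in Wnt plus wells (product -0.21, edgeR adjusted p = 0.61). Foxf1 rose by 1.34 and 1.10 (product -0.25, edgeR adjusted p = 0.91). Within the list, therefore, the loss of the Bmp response in Wnt plus wells was called for Hand1 and Pmp22 and not for Tbx3 and Foxf1. The list of surface ectoderm, amnion and trophoblast genes held 2 called negative products among 6 tested members, Krt8 and Krt18, against 1.63% of all genes, with a median of -0.60. Gata3, a zinc finger factor of trophoblast and surface ectoderm, was raised by Bmp by 2.30 ± 0.22 in Wnt minus and 1.54 ± 0.24 in Wnt plus wells, and its product of -0.75 ± 0.37 did not pass (adjusted p = 0.28; 0.015 with limma-voom).

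Other large negative products were those of Spin2c (-2.17 ± 0.38), Lrp2 (-1.81 ± 0.41), Rhox6 (-1.68 ± 0.41), Wnt4 (-1.56 ± 0.41), Igf2 (-1.52 ± 0.27), Morc4 (-1.48 ± 0.31) and Amot (-1.42 ± 0.20). Amot, a scaffold of the Hippo pathway, had medians of 47.4, 132, 39.9 and 30.0 CPM and the smallest p of these 7 (edgeR adjusted p = 8.3e-09). The ligand gene Wnt4 had medians of 0, 27.6, 0 and 7.08 CPM (adjusted p = 0.010), and the imprinted growth factor gene Igf2 had 25.9, 95.5, 33.5 and 42.0 CPM (edgeR adjusted p = 8.5e-06). Rhox6 differed in kind: Bmp lowered it in Wnt plus wells (-1.42 ± 0.34) and had a fitted effect of 0.26 ± 0.27 in Wnt minus wells. Spin2c and Rhox6 belong to families with near-identical copies, and Igf2 overlaps other annotated transcripts, so their counts are uncertain. In the 98 wells of at least 10 cells the product of Igf2 was 0.21, not called and of the other sign.

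Lrp2 is also an uptake receptor of visceral endoderm, and other genes of that tissue had products of the same sign that did not pass in edgeR with the filter used. The products of Dab2 (-1.29, adjusted p = 0.079), Cubn (-1.41, adjusted p = 0.089) and Amn (-0.75, adjusted p = 0.48) are the 3 tested members of a list of 12 (median -1.29). Dab2 passed with DESeq2 (-1.74, adjusted p = 0.038), with a count minimum of 10 (-1.33, adjusted p = 0.036) and without a filter on low counts, and Cubn without that filter (-1.35, adjusted p = 2.9e-06). All 12 members had UMIs. Their summed level, scaled here to all UMIs of the well without TMM, ran from 0 to 1317 CPM over wells with neither signal (median 29.6), 0 to 865 with Bmp (32.1), 0 to 385 with Wnt (33.5) and 0 to 695 with both (24.1). The secreted carriers that mark mature visceral endoderm were near 0, with 84 UMIs of Ttr, 17 of Afp, 25 of Apoa1 and 26 of Apob in all 300 wells. The part of such cells in the products of Hand1, Pmp22, Lrp2 and the keratins was not tested.

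Bmp lowered all 6 tested anterior Hox genes in Wnt plus wells and 5 in Wnt minus wells, and Wnt raised 5 in either setting of Bmp. None of the 6 had a called product, where 3.87% of all genes did, so the count is not a result about this list (1199 genes of 7437 had an unadjusted p under 0.05 in edgeR). Hoxb1 had medians of 35.2, 8.79, 72.4 and 29.9 CPM, a Bmp effect of -1.40 ± 0.19 without Wnt and -1.17 ± 0.15 with it, and a product of 0.22 ± 0.20 (adjusted p = 0.66). Of 9 tested central and posterior Hox genes none was called either, although Hoxb8 (0.93, adjusted p = 0.082) passed in 3 alternatives, among them the model without the other pairs (1.11, adjusted p = 0.018). Wnt raised 7 with Bmp and 6 without, and Bmp raised Hoxb6 in Wnt plus wells by 1.00 ± 0.17. None of 11 core pluripotency genes was called. Among 6 naive pluripotency genes, Klf5 had a positive product (0.66 ± 0.17, edgeR adjusted p = 0.0063) and Tdh a negative one (-1.24 ± 0.38, edgeR adjusted p = 0.032). The call of Tdh was lost in several alternatives, among them limma-voom (adjusted p = 0.064), the model without the other pairs (0.075) and wells of at least 3 cells (0.053).

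**Figure D3:**
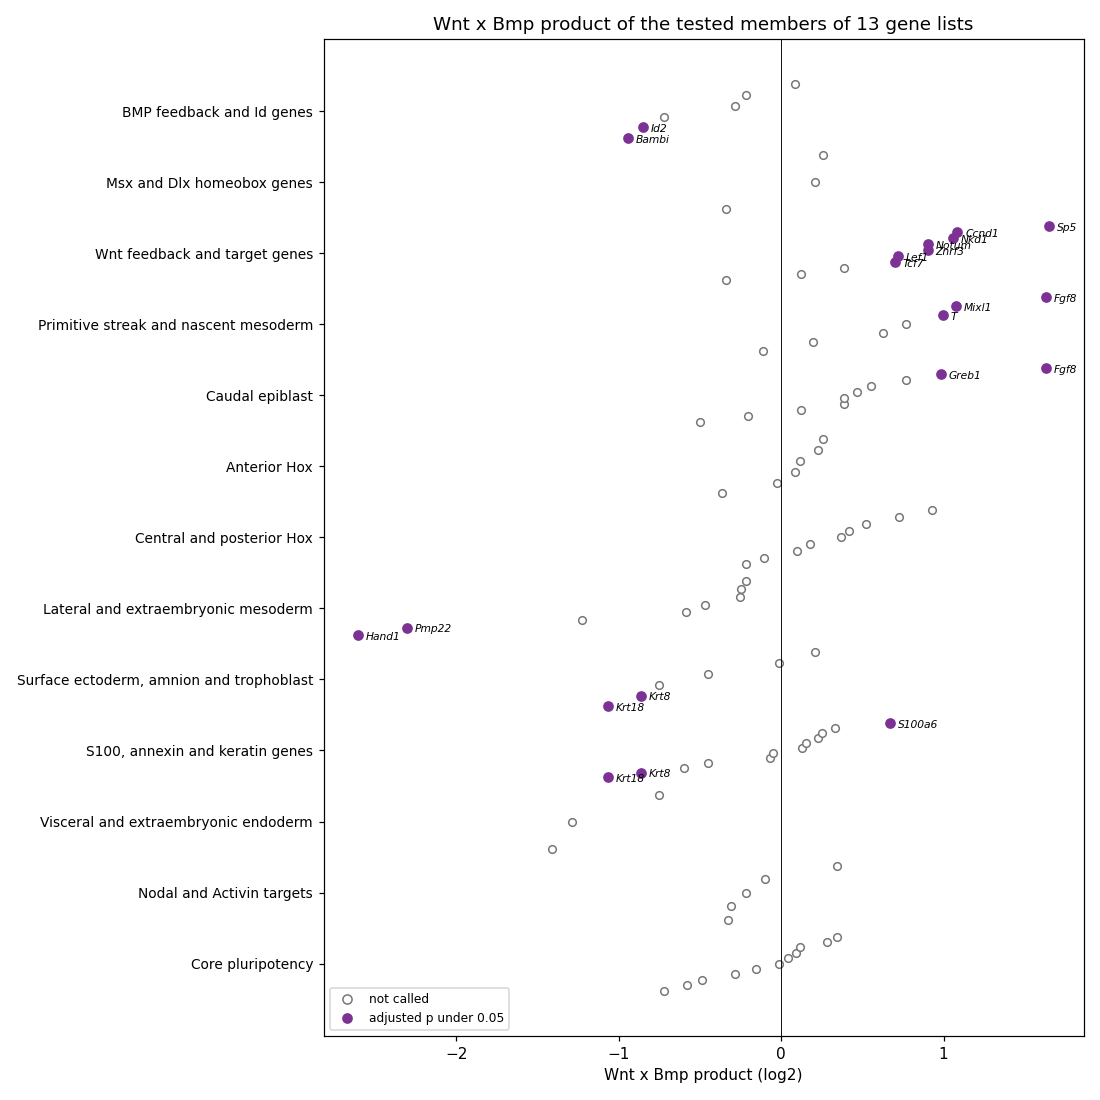
Wnt x Bmp product (log2, horizontal axis) of the tested members of 13 gene lists; filled points with names have an adjusted p under 0.05 and open points do not. The list of Wnt feedback and target genes holds 7 named points, all to the right of 0, and the lists of BMP feedback, lateral mesoderm and surface ectoderm genes hold 2 each, all to the left.

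The same product was estimated in the other 2 single-cell experiments, which used 5 signals without Notch and Shh. Their genes were kept at a count minimum of 10, against 2 for the present wells, so the shares of calls are over different sets of genes. In the mixed experiment, with wells that also began from a mesendoderm start, it was called for 178 of 8791 genes (2.02%; 117 positive, 1.33%, and 61 negative, 0.694%). Of the 288 genes called here, 286 were tested there, 256 (89.5%) had the same sign and 67 were called with the same sign; none was called with the opposite sign. Across these 286 genes the products correlated with r = 0.81, a description over genes chosen in 1 of the 2 experiments. From the undirected start of the mixed experiment 3 of 8791 genes were called (0.0341%; 2 positive, 0.0228%, and 1 negative, 0.0114%), and 169 of the 286 (59.1%) had the same sign. The difference of the product between the starts was called for 0 genes in edgeR, with 574 at an unadjusted p under 0.05.

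In the germ layer experiment, where cells received the signals for 24 h with no mesendoderm pretreatment, the product was called for 415 of 10401 genes (3.99%; 207 positive, 1.99%, and 208 negative). Of the 288 genes, 166 (57.6%) had the same sign there, 23 were called with the same sign and 17 with the opposite sign, and r over genes was 0.01. A model over both experiments called the difference of the products for 123 of 7423 genes (1.66%; 79 positive, 1.06%, and 44 negative, 0.593%), and for 66 of the 288 (22.9%), of which 57 had products of opposite sign. The 288 were chosen by the mesendoderm product, which is itself part of this difference. Their share is raised by that choice and cannot be set against the share over all genes. The start, the library and the number of signals (7 here and 5 there) differ together between these experiments and cannot be told apart. Whether the compounds differ is not known, since those of the mesendoderm experiment are not named. The populations of the germ layer experiment are single conditions of many cells, 8 per group, so their spread is that between conditions.

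Sp5 shows the turn most clearly. In the germ layer experiment it averaged 33.6 ± 20.2 CPM with neither signal, 24.7 ± 16.6 with Bmp, 171 ± 40.5 with Wnt and 33.8 ± 25.3 with both (SD, 8 conditions each), so Sp5 was high with Wnt alone and low when Bmp was added to it. In the mixed experiment from the mesendoderm start it averaged 31.6 ± 15.4, 12.9 ± 7.52, 130 ± 60.9 and 108 ± 60.6 CPM (16 wells each), the pattern of the present wells. The product was -1.98 ± 0.23 in the germ layer experiment (edgeR adjusted p = 2.0e-06) and 1.14 ± 0.25 in the mixed experiment (adjusted p = 0.0026). The difference between the mesendoderm and germ layer products of Sp5 was 3.75 ± 0.30 (adjusted p = 2.1e-25).

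T turned over likewise, with a product of -2.65 ± 0.42 in the germ layer experiment (edgeR adjusted p = 0.00024), 1.11 ± 0.29 in the mixed one (adjusted p = 0.017) and a mesendoderm less germ layer difference of 3.50 ± 0.38 (adjusted p = 6.3e-15). So did Mixl1 (-2.51 ± 0.64 in the germ layer experiment, difference 3.41 ± 0.55) and Lef1 (-1.10 ± 0.15, difference 1.83 ± 0.23). Cdx2 had a product of -1.96 ± 0.33 there and a difference of 2.38 ± 0.31 (edgeR adjusted p = 3.5e-10), although its product in the present wells did not pass. Id2 turned the other way: Bmp raised it more with Wnt in the germ layer experiment (product 1.08 ± 0.12) and less with Wnt here, a difference of -1.92 ± 0.28 (adjusted p = 2.0e-08). In the mixed experiment the products of Mixl1 (0.81), Lef1 (0.31) and Id2 (-0.14) had the sign of the present wells and were not called.

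Hand1 differed by what Bmp did in the presence of Wnt. In the germ layer experiment it averaged 8.15 ± 4.60 CPM with neither signal, 123 ± 89.5 with Bmp, 5.79 ± 2.78 with Wnt and 57.4 ± 41.2 with both (SD, 8 conditions each), so both means with Bmp were above both without it. From the mesendoderm start of the mixed experiment the means were 6.19 ± 6.04, 86.9 ± 86.5, 5.01 ± 8.55 and 3.99 ± 5.08 CPM (16 wells each), so the mean was highest with Bmp alone. The product of Hand1 was -0.58 ± 0.34 in the germ layer experiment (edgeR adjusted p = 0.45) and -3.49 ± 0.59 in the mixed one (adjusted p = 1.6e-05), and the mesendoderm less germ layer difference was -2.01 ± 0.54 (adjusted p = 0.020). Amot and Sp6 kept their sign in all 3. Amot had products of -1.19 ± 0.21 in the germ layer and -1.36 ± 0.29 in the mixed experiment, and Sp6 of 0.77 ± 0.22 and 1.27 ± 0.25, each called by edgeR; that of Sp6 in the germ layer experiment missed the threshold with scaling by UMI totals (0.75, adjusted p = 0.059).

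**Figure D4:**
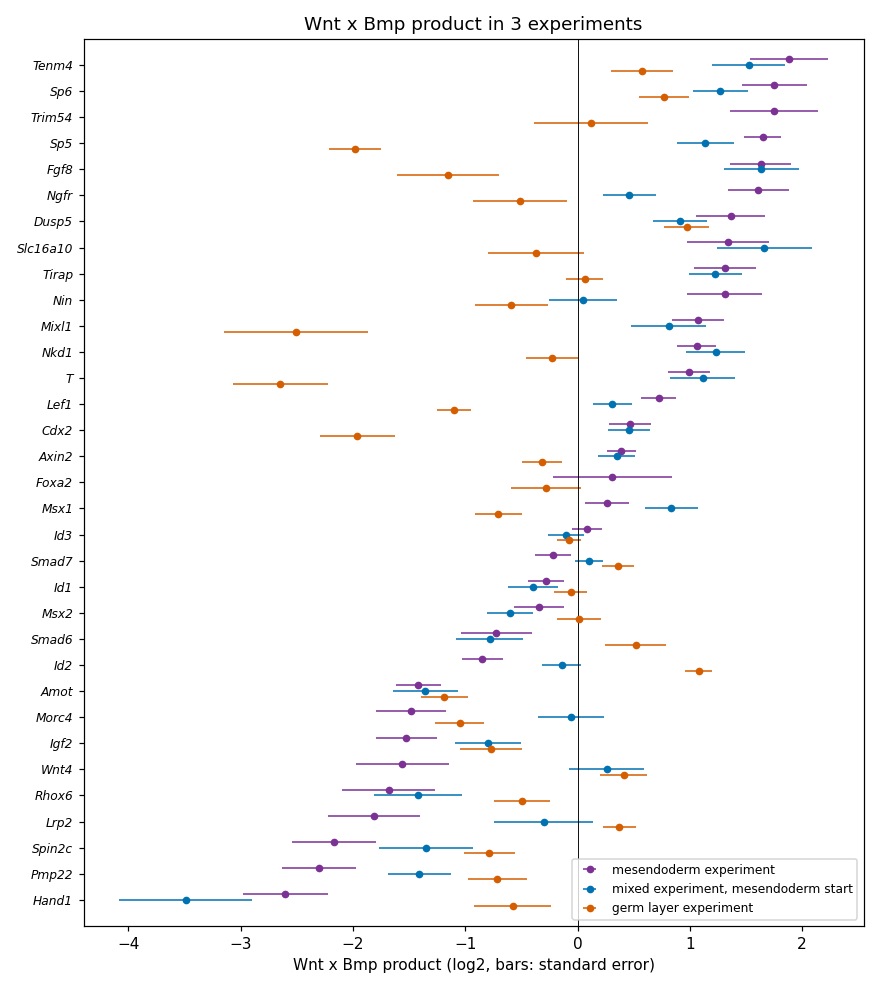
Wnt x Bmp product (log2, with standard errors) of named genes in the mesendoderm experiment, in the mixed experiment from its mesendoderm start and in the germ layer experiment. Sp5, T and Mixl1 lie to the right of 0 in the first 2 and to the left in the germ layer experiment, while Amot lies to the left of 0 in all 3.

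Whether a further signal altered the product was tested for each of the other 5. The call count was 5 genes for RA (0.0672%; 2 higher in RA plus wells, 0.0269%, and 3 lower, 0.0403%), 1 for Tgfb (0.0134%) and 0 for Notch, Shh and Fgf, where edgeR gave 332, 321 and 350 genes at an unadjusted p under 0.05. For Ccnd2 (chr6:127125162-127152193) the Tgfb minus wells averaged 286 ± 128 CPM with neither signal (SD, 48 wells), 230 ± 122 with Bmp (47 wells), 228 ± 121 with Wnt (44 wells) and 465 ± 178 with both (53 wells). In the Tgfb plus wells the same means were 241 ± 88.8 (27 wells), 316 ± 128 (30), 256 ± 84.9 (24) and 377 ± 116 (27). Bmp thus raised the mean in both settings of Wnt where Tgfb was plus, and in Wnt plus wells where Tgfb was minus. The product of Ccnd2 was 1.40 ± 0.16 in Tgfb minus wells and 0.19 ± 0.20 in Tgfb plus wells, a difference of -1.20 ± 0.25 (edgeR adjusted p = 0.0175).

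For RA, the called genes were Foxa2, Dram2, Cd24a, Lgals1 and Spink1. Foxa2, a forkhead transcription factor expressed in the node and in definitive and visceral endoderm, averaged 31.5 ± 28.6 CPM (SD, 35 wells) in RA minus wells with neither signal, and 6.17 ± 11.6, 11.2 ± 18.1 and 8.79 ± 17.5 CPM with Bmp, Wnt and both (42, 32 and 45 wells). In RA plus wells the means were 12.6 ± 16.5 (SD, 40 wells), 13.1 ± 20.8 (35), 9.31 ± 14.6 (36) and 2.32 ± 5.76 CPM (35). The median of Foxa2 was 0 CPM with Bmp, Wnt and both in RA minus wells. In RA plus wells it was 0 CPM with Wnt and with both. Its change by RA thus rests on low counts. Its product changed by -3.68 ± 0.84 from RA minus to RA plus wells (edgeR adjusted p = 0.0286). The visceral endoderm genes Dab2 (-3.48, adjusted p = 0.068), Cubn (-4.16, adjusted p = 0.064) and Amn (-3.91, adjusted p = 0.068) had changes of the same sign and like size that missed the threshold, and their part in the result for Foxa2 was not tested. Cd24a, which encodes a small surface glycoprotein, was named after its values were seen. In RA minus wells it averaged 465 ± 147 CPM with Bmp alone against 176 to 196 in the other groups (product -1.37), and in RA plus wells 327 ± 130 against 232 to 283 (product -0.33), a difference of 1.04 ± 0.24 (edgeR adjusted p = 0.030) that missed the threshold when libraries were scaled by UMI totals (1.02, adjusted p = 0.0504). None of these 6 differences was called in the 98 wells of at least 10 cells.

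**Figure D5:**
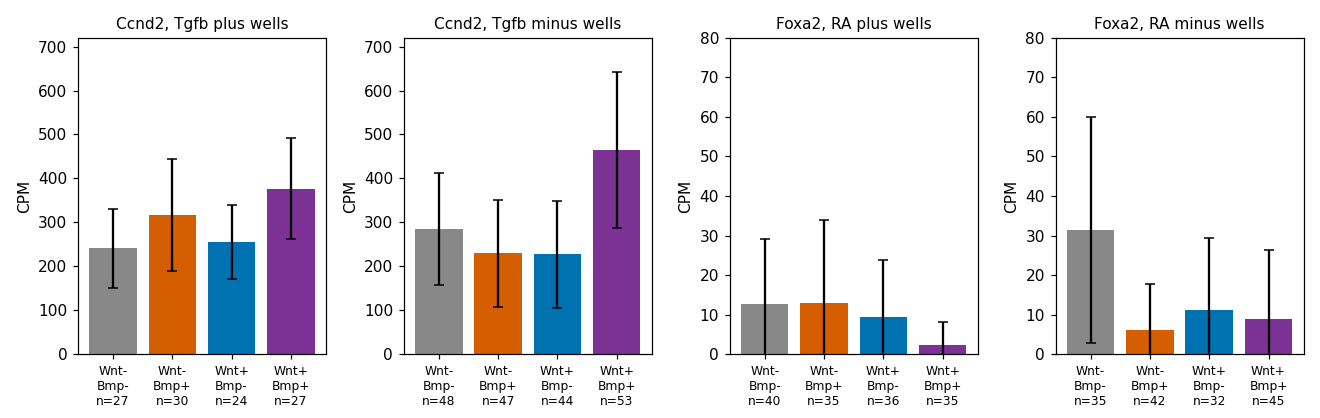
Mean CPM with SD (bars and whiskers, wells as n) of Ccnd2 in Tgfb plus and minus wells and of Foxa2 in RA plus and minus wells, by Wnt and Bmp group. Ccnd2 is highest with both signals, at 465 CPM in Tgfb minus and 377 CPM in Tgfb plus wells, and Foxa2 is highest in RA minus wells with neither signal, at 31.5 CPM.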

How the data were processed

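Single-cell RNA-seq of 3 pooled experiments was deposited as raw UMI counts per gene and cell, which the authors made from their reads with mm10; the tools of the series, per the submitters' processing notes, include HTSeq 0.9.1, STAR 2.5.2b and Cell Ranger 1.3.1. The deposited assignment tables give each cell's barcodelets and the fraction of its barcodelet counts in the most abundant ones (median 0.988 in the mesendoderm experiment), with the authors' pass mark, whose threshold was taken as deposited. Cells that passed were joined to the design table, and counts were summed per well for wells of at least 5 cells. No doublet caller was run. Of the mesendoderm cell barcodes, 14 also occur in the germ layer and 18 in the mixed experiment.

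Genes were kept with edgeR's filterByExpr at a count minimum of 2 (19.8 CPM at the median depth), which left 7437 genes. This minimum was chosen after the depth was seen, since the default of 10 leaves 1898 genes. The germ layer and mixed experiments were filtered at the default of 10. The model over the mesendoderm and germ layer experiments kept genes that passed the filter of each. edgeR 4.0.16 in R 4.3.3 fitted a quasi-likelihood model with TMM scaling to 7 signals coded 0.5 and -0.5 and their 21 pairs; p-values were Benjamini-Hochberg adjusted over all genes. Standard errors are the log2 change divided by the square root of F. limma 3.58.1 and DESeq2 1.42.0 served as alternatives, with other filters, scalings, cell minimums and models. In data simulated for the 7425 genes run, 84 of 100 products of log2 size 1 and 100 of 100 of size 2 were recovered, with 8 false calls of 192.

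P-values measure the spread between wells of 1 pooled library; nothing in the labels says that wells were separate cultures or days of work. The permutation tests of 3 cell measures used 100000 resamples. Genes named were the 10 largest called products each way with a mean of at least 10 CPM (leaving out predicted, mitochondrial and ribosomal protein genes), the members of each gene list with the smallest adjusted p and any of opposite sign, a preset panel of signal readouts, the 3 largest changes each way of each single effect and the genes called for a further signal; 1 gene that this rule names is not reported here. The members and the 35 gene lists were chosen with earlier results of these data known. Gene positions are from GENCODE on GRCm38. The bulk samples of the series were not used here.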

Additional observations from a re-analysis of the deposited data

Results flagged for a closer look

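The Wnt with Bmp product differed between the mesendoderm and germ layer experiments, by the interaction test of a model over both (edgeR), for 19 of the 52 genes named for the size of an effect, as signal readouts or for a further signal. Over all genes tested the share was 1.66% (123 of 7423); many of the 52 were chosen for a large product in the mesendoderm experiment. The largest differences, mesendoderm less germ layer, were those of Sp5 (3.75), T (3.50), Mixl1 (3.41), Foxb1 (2.98), Fgf8 (2.79) and Cdx2 (2.38), all log2. Crabp1, which binds retinoic acid inside the cell, differed most in the other direction (-3.24). Positive differences were also found for Ngfr (2.16), Nin (1.98), Psmb8 (1.98), Lef1 (1.83), Ccnd2 (1.47), Tirap (1.31) and Nkd1 (1.26). Negative ones were found for Lrp2 (-2.23), Hand1 (-2.01), Wnt4 (-2.01), Id2 (-1.92) and Pmp22 (-1.61). The starting state, library and number of signals cannot be told apart between these experiments, and whether the compounds differ is not known.

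Within the mesendoderm experiment the product differed with the setting of RA for Spink1 (-5.25), Foxa2 (-3.68), Dram2 (-2.18), Cd24a (1.04) and Lgals1 (0.97), and with that of Tgfb for Ccnd2 (-1.20), each the value in plus wells less that in minus wells. The median of Spink1 was 0 CPM in every group at both settings of RA. Its means rested on few wells, as with 40.6 ± 161 CPM (SD, 35 wells) in RA minus wells with neither signal and 51.4 ± 119 (35 wells) in RA plus wells with Bmp alone. Dram2 was low too, with group means of 18.3 to 32.2 CPM.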

How the results depend on the processing

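The product was called for 288 genes, 167 positive and 121 negative. Without a filter on low counts it was called for 451 (261 and 190), in wells of at least 10 cells for 19 (17 and 2), in Fgf plus wells alone for 106 (67 and 39) and in Fgf minus wells alone for 74 (46 and 28). The positive count was 253 with a count minimum of 1. The negative count was 196 with DESeq2, 189 with limma-voom, 192 with TMM from highly counted genes and 75 with the wells of a combination summed. The positive share was 70.6% with UMI totals, 68.9% with wells of at least 3 cells, 67.1% with combinations summed, 49.7% with limma-voom, 45.6% with DESeq2, 44.1% with a count minimum of 10 and 43.5% with TMM from highly counted genes.

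The Bmp effect in Wnt plus wells (587 genes) gave 49 in wells of at least 10 cells, 390 with a count minimum of 10, 391 in Fgf plus and 92 in Fgf minus wells. That in Wnt minus wells (671) gave 110, 368, 368 and 189. The Wnt effect with Bmp (1514) gave 362 in wells of at least 10 cells, 662 with a count minimum of 10 and 621 in Fgf minus wells, and without Bmp (583) it gave 77, 365 and 104. Fewer genes or wells enter these fits. Without a filter on low counts the calls for a further signal were 75 for RA (5 in the main analysis), 8 for Tgfb (1), 13 for Notch, 20 for Shh and 10 for Fgf (0 each); with wells of at least 10 cells RA and Tgfb gave 0. From the undirected start of the mixed experiment (3) the counts were 36 without a filter, 1 with UMI totals and 7 with at least 10 cells, the difference between starts (0) gave 33 without a filter and 5 with UMI totals, and the mesendoderm less germ layer difference (123) gave 316 without a filter.

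Of values for single genes under the alternatives, 4871 stayed on the same side of the threshold and 235 lost and 94 gained a call. Another 4, called in the main fit or the alternative, changed sign, whose cause was not tested. Sign changes of values called in neither fit were not counted apart and are among the 4871. In wells of at least 10 cells the product of Igf2 (0.21) and the Wnt effect on Igf2 with Bmp (0.27) changed sign. The product of S100a6 was -0.53 in Fgf minus wells, and the Bmp effect on Igf2 in Wnt plus wells was 0.79 in Fgf plus wells.

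Wells of a combination are numbered. Deviations of same-numbered Wnt plus and Wnt minus wells from their combination means correlated at -0.021, -0.019, 0.013 and 0.023. With so few cells per well this cannot show whether same-numbered wells shared a plate, day or handling. With the well number as a replicate block 297 genes were called (174 positive and 123 negative), among them all 288.

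With a median of 8 cells per well, genes under about 20 CPM were mostly not tested, and a product that was not called is not shown to be absent.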

Other observations

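Among the largest single effects, some genes responded to Bmp in both settings of Wnt. The Nodal inhibitor Lefty1 had medians of 82.8 CPM with neither signal, 20.1 with Bmp, 24.2 with Wnt and 17.6 with both, and Bmp changed it by -1.63 ± 0.19 in Wnt minus wells and -1.96 ± 0.24 in Wnt plus wells. The forkhead gene Foxb1 had medians of 36.2, 0, 14.2 and 0 CPM in the same order, with Bmp effects of -2.45 and -1.74. Sct, which encodes the hormone secretin, went the other way, with medians of 9.41, 49.4, 13.2 and 90.3 CPM and Bmp effects of 1.42 and 2.08. All these single effects were called by edgeR.

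Others responded to Wnt in both settings of Bmp. The homeobox gene Cdx4 had medians of 0, 4.34, 27.9 and 36.0 CPM and Wnt effects of 2.29 without Bmp and 2.09 with it. Crabp1 had 15.6, 24.1, 78.1 and 80.7 CPM with effects of 2.03 and 1.61, and Hoxb9 had 10.4, 12, 24.2 and 39.1 CPM with effects of 1.17 and 1.69. The carbonic anhydrase gene Car2 fell with Wnt, from 173 to 49.7 CPM without Bmp and from 114 to 29.2 CPM with it (effects of -1.70 and -1.61).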
